A study of Mus musculus with 51 samples.

Results

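H3K4me3, trimethylated lysine 4 of histone H3, was mapped in mouse 24h embryos, and the 1000 widest of its peaks that carry no H3K27me3 peak are described here. Width is the end minus the start of a peak as the deposited table gives them on the build mm10. Of 48658 H3K4me3 peaks, 8085 overlapped an H3K27me3 peak by 1 base or more and were set aside, which left 40573 H3K4me3-only peaks. The members were 1987 to 7148 bases wide, with a median of 2169, against a median of 772 bases in the other 39573 H3K4me3-only peaks. The last 3 members in and the first peak out were all 1987 bases wide, and the next peaks out 1986, so the boundary cuts through a tie that was settled by chromosome and start.

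All embryos were C57BL/6 and are described in the labels as 2-cell. They were controls or carried a knockout (KO) of LoNA, a nucleolar long noncoding RNA. H3K4me3 has 1 column for control 24h embryos, ZC4, and 1 for LoNA KO 24h embryos, ZS4. The initials were read from the table's title and the direction of its ratio, since no label spells them out. RNA was counted in control and LoNA KO embryos at 18h, 20h, 22h and 24h, and in C57BL/6 mouse embryonic stem cells that the labels call 2C-like mESC, as controls or with LoNA knockdown (KD). Acetylated nucleophosmin (AcNPM1) was mapped in control, KO and p300-inhibitor-treated KO embryos at 24h. The labels do not say how the KO or KD was made, how many embryos were pooled, or whether the mESC are 1 clone.

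As background, H3K4me3 is placed by complexes of the SET1 and MLL methyltransferases, which share WDR5 and other core subunits, and is removed by demethylases of the KDM5 family. It marks promoters, most of all those rich in CpG dinucleotides, whose unmethylated CpG bases recruit proteins of these complexes. Broad H3K4me3 domains over promoters have been described at genes of cell identity, and in oocytes and early embryos the mark can also lie over wide stretches away from promoters before genome activation is complete. H3K27me3 is the mark of the Polycomb complex PRC2, and regions that carry both marks are called bivalent.

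These 6 promoters show what the sequence under these peaks looks like: those of 4 of the widest members, and those of Mt2 and Ehmt1, the coding genes with an entry at the lowest and the highest KO to control ratio. Each is the RefSeq promoter of GRCm38.p6, the same assembly as mm10, from 250 bases before to 50 bases after the gene's start, written 5′ to 3′ on the gene's own strand, with every CG dinucleotide in capitals. Of the 899 coding gene symbols at members, 737 had an entry in the RefSeq table.
Alkbh5: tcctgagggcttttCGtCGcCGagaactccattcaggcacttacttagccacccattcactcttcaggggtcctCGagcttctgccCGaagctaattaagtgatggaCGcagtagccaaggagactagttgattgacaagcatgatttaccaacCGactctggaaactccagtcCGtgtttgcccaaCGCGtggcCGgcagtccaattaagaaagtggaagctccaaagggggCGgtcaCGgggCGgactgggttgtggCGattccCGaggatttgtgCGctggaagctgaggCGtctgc
Slc12a4: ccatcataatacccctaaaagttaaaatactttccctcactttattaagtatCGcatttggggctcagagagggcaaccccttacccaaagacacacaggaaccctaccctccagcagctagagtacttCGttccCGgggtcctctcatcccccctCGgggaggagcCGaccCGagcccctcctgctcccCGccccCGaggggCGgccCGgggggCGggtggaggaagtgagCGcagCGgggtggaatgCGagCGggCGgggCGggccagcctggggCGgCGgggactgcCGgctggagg
Adrm1: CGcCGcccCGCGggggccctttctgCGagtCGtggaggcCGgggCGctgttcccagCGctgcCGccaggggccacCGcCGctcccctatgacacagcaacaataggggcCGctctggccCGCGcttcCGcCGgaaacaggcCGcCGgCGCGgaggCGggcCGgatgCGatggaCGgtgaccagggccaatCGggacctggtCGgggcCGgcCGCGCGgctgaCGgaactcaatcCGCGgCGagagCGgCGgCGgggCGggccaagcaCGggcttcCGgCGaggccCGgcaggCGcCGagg
Foxo1: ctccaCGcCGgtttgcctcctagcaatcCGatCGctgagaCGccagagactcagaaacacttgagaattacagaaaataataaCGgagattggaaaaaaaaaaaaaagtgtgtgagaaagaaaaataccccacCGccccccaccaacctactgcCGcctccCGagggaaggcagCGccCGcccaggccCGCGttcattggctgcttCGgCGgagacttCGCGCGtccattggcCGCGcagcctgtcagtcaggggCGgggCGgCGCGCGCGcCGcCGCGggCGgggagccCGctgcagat
Mt2: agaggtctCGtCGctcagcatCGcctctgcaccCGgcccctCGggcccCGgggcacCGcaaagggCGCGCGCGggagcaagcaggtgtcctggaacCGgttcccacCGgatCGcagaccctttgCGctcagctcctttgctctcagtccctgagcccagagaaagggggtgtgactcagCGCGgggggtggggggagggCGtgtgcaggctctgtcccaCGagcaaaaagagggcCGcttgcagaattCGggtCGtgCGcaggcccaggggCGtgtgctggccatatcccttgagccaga
Ehmt1: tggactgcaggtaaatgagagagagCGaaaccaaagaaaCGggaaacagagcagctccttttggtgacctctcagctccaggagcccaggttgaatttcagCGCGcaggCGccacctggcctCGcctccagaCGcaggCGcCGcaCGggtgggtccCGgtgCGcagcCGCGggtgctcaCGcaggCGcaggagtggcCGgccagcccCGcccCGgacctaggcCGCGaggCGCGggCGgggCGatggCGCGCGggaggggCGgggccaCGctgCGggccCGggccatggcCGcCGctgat

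Alkbh5 (chr11:60537433-60537732, plus strand) holds 18 CG dinucleotides in its 300 bases and Slc12a4 (chr8:105966066-105966365, minus strand) 20. Adrm1 (chr2:180171338-180171637, plus strand) is the densest of the 6 with 45, and Foxo1 (chr3:52268087-52268386, plus strand) has 31. Mt2 (chr8:94172368-94172667, plus strand) has 24 and Ehmt1 (chr2:24919560-24919859, minus strand) 34. All 6 lie above 7, the median of all 32851 RefSeq promoters in the table. Over the 1105 promoters that lie at members the median was 25, against 20 over the 10664 at other H3K4me3-only peaks. The observed over expected ratio of CpG had medians of 0.84, 0.76 and 0.38 in the same order, members first and all promoters last, and GC content medians of 64.3%, 60.7% and 52.7%. These 4 short motifs were searched on both strands in every promoter. The GC box, GGGCGG, the core of the site bound by SP1-like factors, was found in 71.8% of promoters at members, 64.5% at other H3K4me3-only peaks and 35.7% of all. The ETS core, CGGAAG, was found in 33.0%, 34.6% and 16.9%, and the CCAAT box, CCAAT, in 37.0%, 39.7% and 37.4%. The TATA box, TATAAA, was rarer at members, with 3.62% against 5.95% and 13.6%. Of the promoters printed, 5 hold a GC box, 3 a CCAAT box and 1, Adrm1, an ETS core, and none holds the TATA letters. Matches are to letters only and are given as a description.

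Most members sat on gene starts. A gene was counted at a peak when its 5′ end, as positioned in the RNA tables, lay inside it. In 766 of the 1000 members at least 1 gene started, 59 held only the start of a RefSeq gene not matched there, 125 lay inside a RefSeq gene without holding a start, and 50 lay outside RefSeq genes. A protein-coding start was present in 738 members (73.8%), against 20.3% of the other H3K4me3-only peaks, and a wider peak has more room for one. Coding starts on both strands were present in 150 members (15%) and in 2.03% of the other peaks. Whether they diverge, as at a bidirectional promoter, was not checked. The members held 1053 genes in all, of which 899 were protein-coding, 53 antisense RNA and 32 lincRNA.

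**Figure D1:**
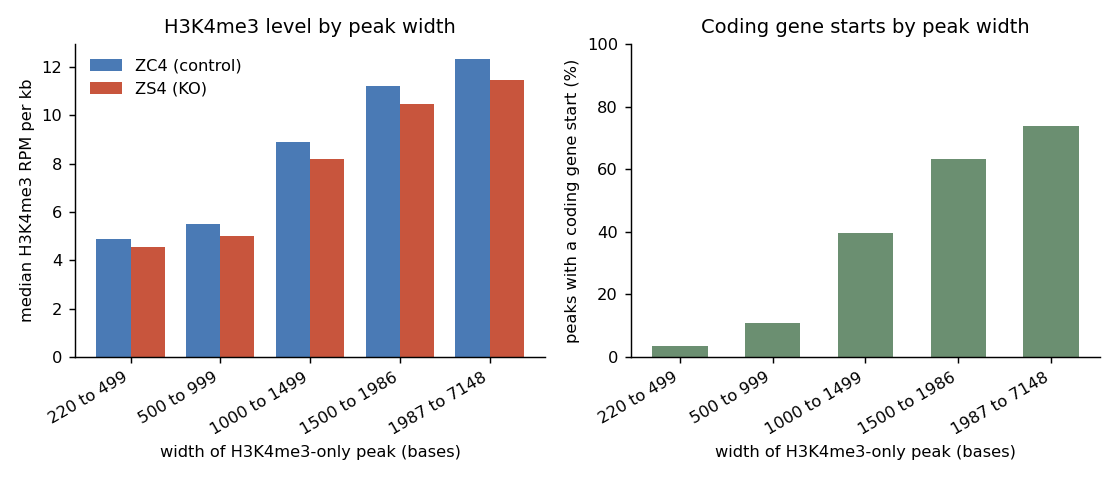
Left, median H3K4me3 RPM per kb in ZC4 and ZS4 by width class of H3K4me3-only peaks; right, percent of those peaks that hold a protein-coding gene start. The widest class holds 1001 peaks, the members and the 1 peak of the same width that fell outside. Its share with a coding start is 73.8%, and its ZC4 median of 12.3 is close to the 11.2 of the class below.

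Of the 10 widest peaks, 4 held a coding start (40%), against 67.5% of ranks 11 to 50 and 73.8% of ranks 501 to 1000. With only 10 peaks behind the first share, this difference was not tested. The widest of all, chr10:27818747-27825895, spans 7148 bases, against 3468 for the next, lies outside RefSeq genes, and measured 121 RPM in ZC4 and 115 in ZS4. RPM is the reads in a peak scaled to the total reads of its column, as the authors deposited it. The second peak and the third, chr4:146100897-146104365 in Zfp987 and chr10:80310718-80314163 in Apc2, lie inside genes without a start, and Apc2 encodes a relative of the APC tumour suppressor. The fifth, chrX:91841045-91844319, lies outside RefSeq genes and the sixth, chr8:120334487-120337751, inside Gse1. The first with a coding start is chr11:60536073-60539470, 3397 bases at Alkbh5, which encodes an RNA N6-methyladenosine demethylase. The seventh holds the starts of Spry4, an inhibitor of receptor tyrosine kinase signalling, and Arhgap26, a GTPase-activating protein. The eighth holds Adgrl2, an adhesion G protein-coupled receptor, and the tenth, at chr8:105963691-105966805, Slc12a4, a potassium-chloride cotransporter. The next ranks hold Adrm1, a ubiquitin receptor of the proteasome, Mrps24, a protein of the mitochondrial ribosome, Arc, an immediate early gene of neurons, and Foxo1, a forkhead transcription factor. Ranks 15, 18 and 20 hold Map3k11 with Pcnx3, Tcf7l1, a repressor in Wnt signalling, and Pusl1 with Acap3.

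Genes of general cell functions were present at the members and those of the two-cell programme were not. The other H3K4me3-only peaks also held most ribosomal protein genes and few two-cell genes. Of 84 cytosolic ribosomal protein genes, 15 (17.9%) started in a member, among them Rps3, Rps3a1 and Rpl34. Of 58 genes for RNA polymerase II subunits and splicing factors it was 10 (17.2%), among them Srsf2, Polr2h, Polr2i and Srsf10. Of 30 genes on a fixed list for H3K4 methylation it was 6 (20%): Hcfc1, Kdm5a, Setd1a, Kdm2a, Wdr5 and Kdm1b. That list holds H3K4 methyltransferases, their subunits, and demethylases that do not all act chiefly on this mark, Kdm2a among them. Cell cycle genes had 6 of 45, including Cdc20, Mcm5, Plk1 and Mcm6, ribosome biogenesis 6 of 61, including Utp18, Ncl, Gar1 and Tsr1, and other chromatin regulators 6 of 63, including Cbx7, Dnmt3b, Hdac3 and Smarca5. Of all 20022 coding genes of the RNA tables, 4.49% started in a member. The other H3K4me3-only peaks held the starts of 60 of the 84 ribosomal protein genes, 45 of the 58 polymerase and splicing genes, 15 of the 30 of H3K4 methylation, 32 of the 45 of the cell cycle, and 8904 of all coding genes. None of 36 two-cell genes and none of 35 developmental regulators started in a member, and 2 and 10 did at the other H3K4me3-only peaks. At H3K4me3 peaks with H3K27me3, which the choice of members set aside, 2 of these two-cell genes and 12 of these developmental regulators started. Of 27 pluripotency genes 1 did, Lin28a, and of 36 maternal oocyte genes 2, Kit and Kdm1b. Of 74 histone genes 2 did, Hist2h2be and Hist2h2ac, which share 1 peak, and of 28 factors of zygotic genome activation 2, Kdm5a and Smarca5. The lists overlap, and these are counts with no test.

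The label of the H3K4me3 table was set against marker genes. Of 8 two-cell markers, such as Zscan4c, Zscan4d and Zfp352, none had an H3K4me3 peak at its start or within 1 kb. In control embryos at 24h the RNA of these 8 markers summed to 607.6 and 1728 CPM, with Obox6 at 0. CPM is counts scaled to the size of the library. Of 6 mESC markers, 3 had a peak at the start, Pou5f1, Nanog and Zfp42, and 5 within 1 kb. Their RNA summed to 2.2 and 125.6 CPM in the same libraries, with Nanog and Esrrb at 0, and to 2480 and 2493 CPM in control mESC. Other cell types' markers also had peaks: 5 of 10 for trophectoderm, 3 of 8 for cumulus and granulosa cells and 2 of 5 for fibroblasts. For blood it was 0 of 4. Which cells these peaks came from was not tested. The peaks at Cdx2, Eomes, Krt18, Tead4, Inhba and Thy1 also overlapped an H3K27me3 peak. Those at Krt8, Has2, Inha and Vim did not, nor did those at Pou5f1, Nanog and Zfp42. Of 36 maternal oocyte genes, 8 had a peak at the start and 14 within 1 kb. At these 8 two-cell markers the H3K4me3 peaks go against their label as 2-cell embryo chromatin. The peak at Nanog measured 25.3 RPM in ZC4, while Nanog RNA was at 0 in control embryos at 22h and 24h. How reads shared by near-identical gene copies were placed is not given in the sources used here. The part of this in the results was not tested. The 2C-like mESC also had little two-cell RNA, with marker sums of 9.43 and 9.72 CPM in control and 3.9 and 4.69 CPM in KD.

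H3K4me3 at the members was dense but not far denser than at peaks a little narrower. Per kb of peak, the members had a median of 12.3 RPM in ZC4 and 11.4 in ZS4. The 3214 other H3K4me3-only peaks wider than 1500 bases had 11.2 and 10.4, and all 39573 others 6.44 and 5.87. Members at a gene start of the RNA tables had medians of 12.6 and 11.9, those inside a gene without a start 11.1 and 10.2, and those outside genes 8.85 and 8.27. Among the members the level per kb did not follow width: Spearman's rho of the pair was 0.05 over 1000 peaks, and the medians of ZC4 from rank 1 to 10 (13.0) and from rank 501 to 1000 (12.3) were close. The lowest member, chr16:96757298-96759376 in Dscam, had 3.13 RPM per kb in ZC4 and 2.65 in ZS4. Behind each member stood 433 to 8061 reads in ZC4 and 273 to 5722 in ZS4, out of 66601350 and 49648616 total reads.

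Loss of LoNA went with little difference in H3K4me3 at the members. ZS4 and ZC4 levels per kb ordered the 1000 peaks nearly alike, with a Spearman's rho of 0.96 over peaks that share both libraries. The log2 ratio of ZS4 over ZC4 ran from -0.47 to 0.44, with a median of -0.11, against a median of -0.13 over all 48658 H3K4me3 peaks. None of the 1000 members differed 2-fold in either direction, where 0.0781% of all peaks did, 5 higher and 33 lower. None differed 1.5-fold, where 270 of all peaks were higher and 1367 lower. The ratio was below 0 in 808 members (80.8%) and in 73.2% of all peaks. That direction depends on the scaling: with both columns brought to the same median RPM over all peaks the members' median became 0.030. The members had a median of 1797 reads in ZC4, against 370 over all H3K4me3 peaks, and their exact binomial intervals, which cover counting error only, reached a median of 0.11 to either side on the log2 scale. With 1 column per condition there is no replicate and no test.

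**Figure D2:**
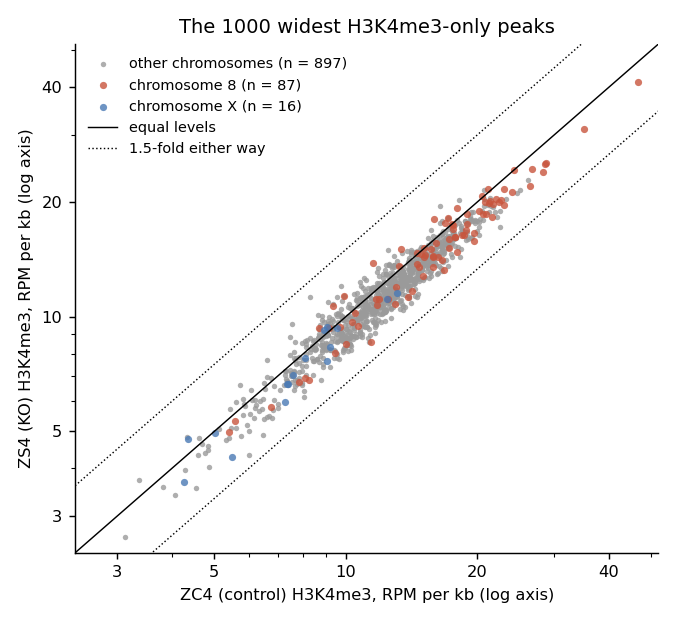
H3K4me3 of each of the 1000 members in ZC4 (x axis) and ZS4 (y axis), in RPM per kb on log axes, with chromosome 8 and chromosome X in colour. The points follow the line of equal levels, slightly below it, and none lies outside the 1.5-fold lines. The members with the highest levels are on chromosome 8.

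At the lower end of the ratio were chr17:46265847-46267859 inside Tjap1, with 12.1 RPM in ZC4 and 8.72 in ZS4, and chr8:94171692-94173777 at Mt2, a metallothionein, with 23.8 and 17.9. The latter has a log2 ratio of -0.41 with a 95% interval from -0.53 to -0.29. Next came chr11:119584530-119586607 outside genes (-0.40), the shared promoter of Kctd10 and Ube3b (-0.40), and chr17:29093462-29095696 at the RefSeq start of Cdkn1a, the cyclin-dependent kinase inhibitor p21 (-0.39). At the upper end, chr5:123343644-123345639 at Bcl7a, a subunit of SWI/SNF chromatin remodelling complexes, had 16.5 RPM in ZC4 and 22.5 in ZS4, a log2 ratio of 0.44 with an interval from 0.32 to 0.56. It was followed by chr2:24917913-24920002 at Ehmt1, a histone H3 lysine 9 methyltransferase (15.7 and 20.0 RPM, 0.35), Rapgef2 (0.30), Galnt7 (0.27) and Neo1 (0.27). All 5 of these hold a coding start, and of the 5 lowest, those of Mt2 and of Kctd10 with Ube3b do. Of the widest members, Alkbh5 had 41.7 RPM in ZC4 and 41.9 in ZS4, Adrm1 34.0 and 34.0, and Foxo1 29.6 and 31.8.

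Members on chromosome 8 had more H3K4me3 than those elsewhere. The 87 members there had a median of 16.6 RPM per kb in ZC4, against 12.2 over the 897 members on the other autosomes, a ratio of 1.36. In ZS4 it was 15.1 against 11.3, a ratio of 1.34. The medians of the other autosomes ran from 10.9 to 13.0 in ZC4. The 5 members with the highest ZC4 level per kb were all on chromosome 8, as were 24 of the top 50. First was chr8:20422945-20424967 at 2610005L07Rik, with 46.6 RPM per kb in ZC4 and 41.2 in ZS4. Second was the shared promoter of Smim7 and Tmem38a with 35.1 and 31.0, and then came Lsm4, a component of the LSM complexes of RNA processing (28.7 and 25.3), Pgpep1 (28.6 and 25.1) and Ankrd10 (28.3 and 24.0). The 16 members on chromosome X had medians of 7.82 and 7.35, ratios of 0.64 and 0.65 to the autosomes other than 8.

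The same direction was seen beyond the members. On chromosome 8 the ratio to the other autosomes was 1.14 in both columns at the other H3K4me3-only peaks, 1.20 in both H3K27me3 columns, and 1.18 to 1.21 in the AcNPM1 columns. On chromosome X the ratio was 0.77 in ZC4 and 0.76 in ZS4 at the other H3K4me3-only peaks. It was 0.62 to 0.63 in the H3K27me3 columns and 0.54 to 0.57 in the AcNPM1 columns. Most of these other H3K4me3-only peaks are far narrower than the members. At those wider than 1 kb the ZC4 median was 12.9 RPM per kb on chromosome 8. The other autosomes ran from 8.09 on chromosome 18 to 11.1 on chromosome 11. In RNA, coding genes on chromosome 8 took 6.08% to 6.30% of all coding counts in the 4 mESC libraries and 3.55% to 5.2% in the embryo libraries. The share of the members' coding genes' counts was 7.73% to 7.84% in mESC and 4.05% to 5.03% in embryos. The part of these differences in the members' levels was not tested. Without the members on chromosome 8 the median log2 ratio of ZS4 over ZC4 stayed at -0.11.

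**Figure D3:**
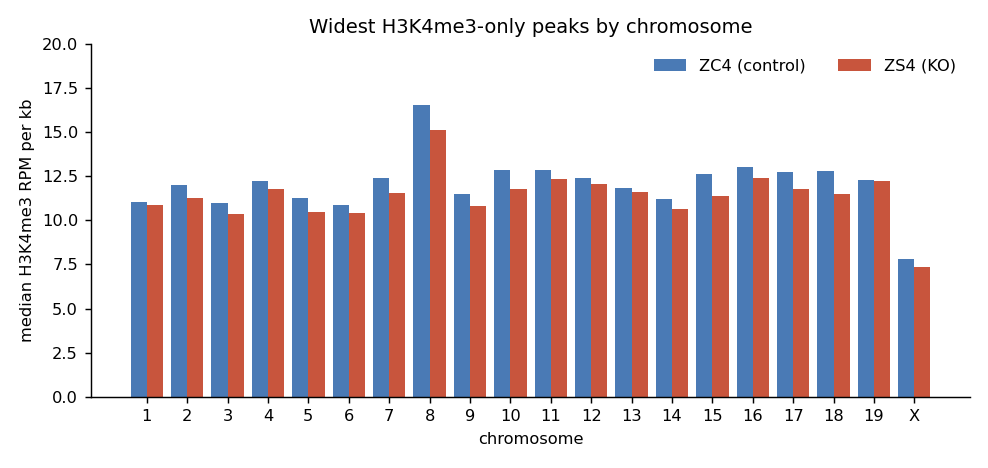
Median H3K4me3 RPM per kb of the members on each chromosome, in ZC4 and ZS4. Chromosome 8, at 16.6 and 15.1, is above the other autosomes, and chromosome X, at 7.82 and 7.35, is below them. The bars carry no error, since there is 1 library per condition.

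RNA libraries held 12077497 to 18286944 counts. At 18h, 20h and 22h there were 3 libraries per group, at 24h 2 after near-identical columns were summed, and in mESC 2. At 24h only 7877 to 10167 genes had a count and mitochondrially encoded genes took 12.9% to 19.3% of counts, against 17125 to 23957 genes and 1.48% to 9.84% elsewhere. No gene of the tables is named LoNA, so the KO was not checked under that name. In a pool of embryos, fewer cells that express a gene and less RNA per cell cannot be told apart. CPM is not divided by transcript length, which the sources used here do not give. Levels of different genes, as in the detected shares, medians and rankings below, therefore also depend on length.

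In embryos, genes at the widest peaks were detected about as often as genes at other H3K4me3-only peaks. In control embryos at 18h, 729 of the 899 coding genes at members reached a mean of 1 CPM (81.1%, exact binomial 95% interval 78.4% to 83.6%), against 79.8% of the 8904 at other H3K4me3-only peaks. At 20h it was 79.0% against 77.1%, at 22h 76.6% against 77.4%, and at 24h 47.5% against 47.9%. Coding genes at H3K4me3 peaks with H3K27me3 were lower at each time, at 52% for 18h, and coding genes at no H3K4me3 peak lower again, at 39.8%. In KO embryos the members' shares were 79.5%, 77.4%, 79.9% and 44.5% in time order. In mESC the order of the first pair was clearer: 95.8% of the members' genes (interval 94.2% to 97.0%) against 91.3% (interval 90.7% to 91.9%), and 96.0% against 90.9% in KD. The median level was 49.8 CPM at members and 30.8 CPM at other H3K4me3-only peaks in control mESC, but 9.01 and 9.58 CPM in 18h and 9.77 and 11.1 CPM in 22h control embryos. Intervals treat genes as draws and do not cover the spread between libraries.

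**Figure D4:**
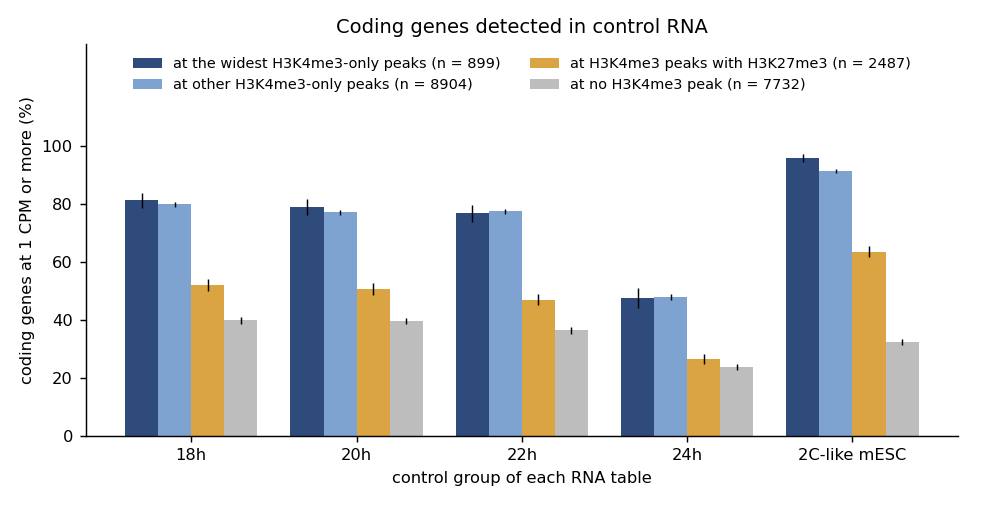
Percent of protein-coding genes at a mean of 1 CPM or more in the control group of each RNA table, by the kind of peak at the gene's start; error bars are exact binomial 95% intervals over genes. The share at the widest peaks is close to that at other H3K4me3-only peaks at 18h to 24h, and 95.8% against 91.3% in mESC.

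Gene by gene, 646 of the 899 were at 1 CPM or more in control embryos at each of 18h, 20h and 22h, and 639 of these also in control mESC. In mESC 861 were detected, 104 of them at no embryo time. Those 104 include Slc12a4 and Arc of the 20 widest peaks, Tdg, a thymine DNA glycosylase, Sox4 and Sox13, Fzd8, a Wnt receptor, and Ndrg1. The 7 detected at 18h, 20h and 22h but not in mESC were 9130023H24Rik, Dpf3, Gm12057, Grk4, Leng9, Lrrc4 and Pax2. A further 20 were under 1 CPM in every control group in which they are listed, or not listed, and Mt2 is among them. These names were picked after their values were seen. Over the 581 members with exactly 1 coding start, ZC4 RPM per kb and control CPM had a Spearman's rho of 0.17 in mESC and of -0.10, -0.10, -0.07 and -0.13 at 18h, 20h, 22h and 24h. The points share their libraries, and CPM also depends on transcript length, so this is a description only.

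The most abundant RNAs at members differed between embryos and mESC. In embryos Tbc1d15, a Rab GTPase-activating protein, led at 18h with a control mean of 2549 ± 438 CPM and a KO mean of 2714 ± 525 CPM (SD, n = 3). Its control libraries had 3027, 2167 and 2454 CPM and its KO libraries 2112, 2956 and 3074 CPM, so the groups overlapped. In mESC it had 131 and 126 CPM in control and 124 and 114 CPM in KD. Tiparp, a mono-ADP-ribosyltransferase, came next at 18h, with 2380.2 ± 356 and 2149.9 ± 456 CPM (SD, n = 3). It had 90.2 and 91.9 CPM in control mESC. Others among the 10 highest in 18h control embryos were G6pdx, the first enzyme of the pentose phosphate pathway (1091 ± 285 CPM), the splicing factor kinase Srpk1 (1037 ± 88.0 CPM), the small GTPase Arf1 (907 ± 288 CPM) and Spry4 (802 ± 389 CPM; SD, n = 3 each). At 22h 8 of these 10 were again among the 10 highest, joined by Tubb4b and Elof1. In control mESC Hsp90ab1, a cytosolic chaperone, led with 6139 and 6214 CPM, followed by the ribosomal protein gene Rpsa with 2134 and 2258 CPM. In 22h control embryos Rpsa had 2.18, 0.951 and 1.04 CPM, and Rps3, at 1526 and 1522 CPM in control mESC, had 4.75, 6.18 and 4.17 CPM. Ribosomal protein genes have many processed copies in the genome, and how reads shared with them were counted is not given in the sources used here.

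In the 4 embryo comparisons no gene at the members passed the edgeR test at an adjusted p of 0.05. At 18h it was 0 of 788 tested, against 0.00649% of all 15416 genes, at 20h 0 of 742 against 0.0138% (0.00689% in each direction), at 22h 0 of 779 against 0.00656%, and at 24h 0 of 402 against 0% of 7425. At an unadjusted p under 0.05 there were 39, 20, 28 and 12 member genes in time order (4.95%, 2.70%, 3.59% and 2.99%), against 5.14%, 3.66%, 3.15% and 5.16% of all genes. DESeq2 called 6 member genes at 18h (0.678% of those with an adjusted p, against 0.48% of all genes), 0 at 20h (against 0.204%), 0 at 22h (against 0.0139%) and 52 at 24h (12.1% against 16.2%). The libraries of both groups did not overlap for 98, 74, 69 and 126 member genes, or 12.4%, 9.97%, 8.86% and 31.3%, against 12.9%, 9.87%, 9.23% and 33.3% of all genes tested. The median log2 change of the member genes was 0.00 at 18h, 0.07 at 20h, 0.05 at 22h and 0.29 at 24h, against -0.02, -0.03, 0.00 and 0.02 over all genes tested.

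**Figure D5:**
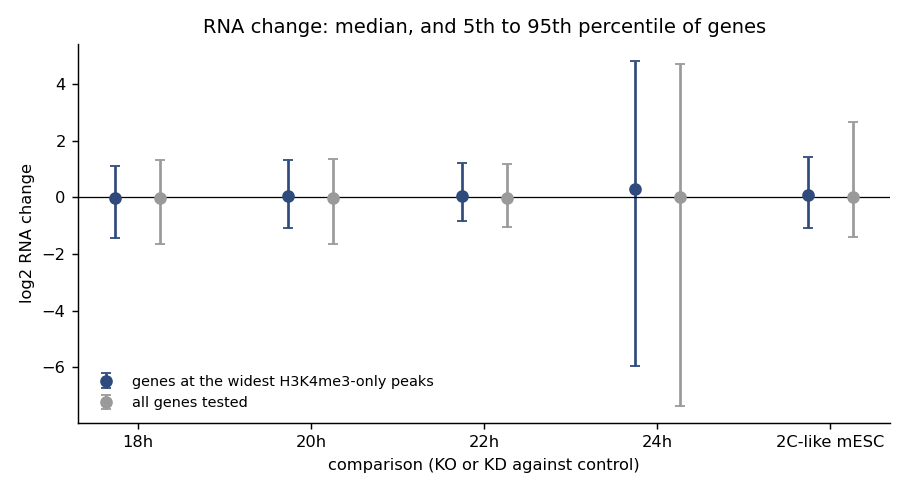
Log2 RNA change, KO or KD over control, of the genes at the members and of all genes tested in each comparison; points are medians, and bars run from the 5th to the 95th percentile of genes. In embryos the medians lie between 0.00 and 0.29 for the member genes, and the 24h bars are the longest. In mESC the member genes have a median of 0.10.

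Some member genes came nearest to the test. At 18h Cox5a, a subunit of cytochrome c oxidase, had 25.2, 33.7 and 47.1 CPM in control and 73.7, 113 and 75.5 CPM in KO, with all KO libraries above the controls (log2 1.31 ± 0.35 SE, edgeR adjusted p 0.744). Polr2l, a small subunit shared by the RNA polymerases, had 21.3, 23.1 and 34.0 CPM in control and 58.7, 52.7 and 58.0 CPM in KO (log2 1.11 ± 0.33 SE, edgeR adjusted p 0.744). On the lower side 9130023H24Rik had 80.2, 66.4 and 88.3 CPM in control and 33.9, 18.2 and 33.9 CPM in KO. Its edgeR adjusted p was 0.744 and its DESeq2 adjusted p 0.0292. The other 5 that DESeq2 called at 18h were Ndrg1, higher in KO, and Dbnl, Cd81, Mesd and Mfsd7b, lower. These 5 were low RNAs present in 1 group and at or near 0 in the other: Mfsd7b, a transporter of the major facilitator family, had 2.29, 2.97 and 7.32 CPM in control and 0 in each KO library, at least 57.5-fold lower against a floor of 3 counts over the KO group. Tcf19 had 0.868, 1.78 and 0.899 CPM in control and none in KO, and Ptges3l was at 0.947, 0.594 and 0.513 CPM against 4.17, 6.29 and 4.38 CPM.

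At 20h Ppargc1b, a transcriptional coactivator of mitochondrial genes, had 3.27, 3.05 and 5.41 CPM in control and 13.5, 14.5 and 15.0 CPM in KO (edgeR adjusted p 0.998). Pelp1 had a control mean of 6.02 ± 0.58 CPM and a KO mean of 17.2 ± 3.43 CPM (SD, n = 3), and Dazap2 532 ± 249 and 244 ± 39.4 CPM. In neither gene did the groups overlap. At 22h the smallest p on the lower side was that of Mrps7, a mitochondrial ribosomal protein, with 61.7, 67.6 and 52.6 CPM in control and 37.4, 38.9 and 38 CPM in KO (log2 -0.67 ± 0.24 SE, edgeR adjusted p 1). Elof1, a transcription elongation factor, had 805, 727 and 789 CPM against 608, 543 and 454 CPM. Vdac1, a channel of the outer mitochondrial membrane, had a control mean of 35.7 ± 24.4 CPM and a KO mean of 85.7 ± 28.7 CPM (SD, n = 3), with overlapping libraries. Mfsd7b, without counts in KO at 18h, had 0 in each control library and 1.34, 0.631 and 2.14 CPM in KO at 22h. At 24h, with 2 libraries a group, Zfp367 had 57.3 and 54.0 CPM in control and 0 in both KO libraries, and Glyr1 had 0 and 0.0688 CPM in control and 161 and 4.07 CPM in KO (edgeR adjusted p 0.826 each). Adgrl2, at the eighth widest peak, had 0 in both control libraries and 1.13 and 82.9 CPM in KO.

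Among genes at the 20 widest members, Foxo1 had 286, 205 and 204 CPM in control and 189.7, 177 and 154 CPM in KO at 18h, and 224, 152 and 260.4 against 357, 214 and 286 CPM at 22h. The groups were apart at 18h and overlapped at 22h (edgeR adjusted p 1 at each). Alkbh5 had 204, 198 and 125 CPM in control and 139, 178 and 121 CPM in KO at 18h, and 399, 340.5 and 327 against 385, 308 and 343 CPM at 22h, with overlap at both times. Arhgap26 had 212, 195 and 212 CPM against 227, 324 and 282 CPM at 18h, all KO libraries above the controls, with an edgeR adjusted p of 1. Slc12a4 stayed at or below 1.80 CPM in every embryo library in which it was listed, with 97.0 and 87.1 CPM in control mESC. Tcf7l1 had 0.343 ± 0.0441 CPM in control embryos at 22h (SD, n = 3) and 43.5 and 43.6 CPM in control mESC.

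In mESC most member genes differed between KD and control, as did most genes. Of 926 tested, 425 were higher in KD (45.9%) and 291 lower (31.4%), against 38.9% and 35.3% of all 16406 genes. The median log2 change was 0.10, against 0.01 over all. By 2-fold or more, 98 member genes rose (10.6%) and 54 fell (5.83%), close to the 10.5% and 7.83% of genes at other H3K4me3-only peaks, and against 15.2% and 13.7% of all. Markers moved with the same contrast: the summed mESC markers had 2480 and 2493 CPM in control and 1183 and 1204 in KD, and the summed fibroblast markers 932 and 936 CPM in control and 1403 and 1431 in KD. The fall was not particular to mESC markers. Trophectoderm markers summed to 126 and 129 CPM in control and 64.7 and 65.2 in KD. Cumulus and granulosa markers had 37.3 and 40.4 CPM against 17.7 and 19.1, and blood markers 10.1 and 11.8 CPM against 6.28 and 6.60. The mitochondrial share was 1.48% and 1.53% in control and 2.26% and 2.24% in KD. Their part in the members' changes was not tested. The columns of a group were nearly alike, with a chi-square per degree of freedom of 1.99 in control and 3.08 in KD, where 1 is counting noise alone and the embryo groups had 60.7 or more. The p-values measure the spread between such columns, and the labels do not say that they came from separate cultures.

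The member genes with the smallest p in mESC moved by large factors. Map1b, a microtubule-associated protein, had 146 and 154 CPM in control and 1444 and 1424 CPM in KD (log2 3.27 ± 0.04 SE, edgeR adjusted p 4.39e-24). Rpl34 had 16.4 and 15.1 CPM in control and 206 and 227 CPM in KD (log2 3.79). Lgals1, galectin-1, went from 104 and 112 CPM to 490.1 and 546 CPM, and Cdr2l from 40.4 and 39.7 CPM to 181 and 180.2 CPM. The lower side was led by Nid2, the basement membrane protein nidogen-2, with 475 and 469 CPM in control and 189 and 182 CPM in KD (log2 -1.34 ± 0.04 SE, edgeR adjusted p 7.55e-18). Dnmt3b, a de novo DNA methyltransferase, fell from 175 and 178 CPM to 81.2 and 84.9 CPM. Cdyl2, a chromodomain protein, fell from 60.8 and 59.8 CPM to 18.5 and 16.4 CPM, and Usp9x, a deubiquitinase, and Ncapd2, a condensin subunit, by 1.03 and 0.93 on the log2 scale. Of the genes at the 20 widest members, Acap3 rose by 2.27, Arhgap26 by 2.16 and Adgrl2 by 1.08, while Foxo1 fell by 1.13, Tcf7l1 by 0.87 and Pcnx3 by 0.60 (log2, edgeR adjusted p at most 1.72e-09). Arc missed the threshold, with 28.9 and 31.1 CPM in control and 32.3 and 34.0 CPM in KD.

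By group, 5 of the 6 member genes on the H3K4 methylation list passed the edgeR test in KD mESC. All 5 fell, where 35.3% of all genes tested fell and 38.9% rose. Kdm5a, a demethylase of H3K4me3, fell by 0.63 and Kdm2a, a CpG-binding demethylase, by 0.52 (log2). Hcfc1, a subunit of SET1 and MLL complexes, fell by 0.52, the methyltransferase Setd1a by 0.52 and the core subunit Wdr5 by 0.24 (log2). Hcfc1 went from 462 and 436 CPM to 315 and 308 CPM. Kdm1b had 29.3 and 24.1 CPM in control and 24.5 and 24.7 CPM in KD and missed the threshold. Over the whole list of 30 genes, 29 were tested, 17 were lower and 7 higher, with a median of -0.32. In embryos none of the listed genes passed at any time, with 28, 28, 28 and 20 tested in time order. Of the 15 ribosomal protein genes at members, 10 rose in KD and 1, Rps6, fell. Their median was 0.23, against 0.01 over all genes tested, and the counts of this and the next lists stand against the same 38.9% higher and 35.3% lower. Of the 6 cell cycle genes 5 fell, Cdc20 by 0.65 and Mcm5 by 0.63 on the log2 scale among them, and Cdkn1b, the inhibitor p27, rose. Of the 10 polymerase and splicing genes 6 rose and 2 fell, of the 6 other chromatin regulators 4 fell, and of the 6 ribosome biogenesis genes 3 rose and 2 fell. Lin28a, the pluripotency gene, had 208 and 203 CPM in control and 211 and 205 CPM in KD, and Kit fell from 90.9 and 92.1 CPM to 36.2 and 35.1 CPM. In embryos 0 of these list members passed the test at any time.

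AcNPM1 was rare at the members. In the table of KO and control embryos, 48 members (4.8%, exact 95% interval 3.56% to 6.31%) overlapped an AcNPM1 peak, against 2.57% of the other H3K4me3-only peaks and 72.3% of H3K4me3 peaks with H3K27me3. Per kb of H3K4me3 peak the covered bases were 14.5 at members, 15.6 at other H3K4me3-only peaks and 539 at peaks with H3K27me3, so per kb the members were not the more covered. In the table of KO embryos with and without the p300 inhibitor it was 78 members (7.8%) against 4.26% and 80.9%. Among the members touched were the widest peak of all, the peak at Mmp17, a matrix metalloproteinase, and the peak of Plk5, which 1 AcNPM1 peak covered from end to end. These were picked after their values were seen. At the wider of the 2 AcNPM1 peaks at Mmp17 AcNPM1 measured 5.3 RPM in control and 6.63 in KO, and at Plk5 20.1 and 21.8 RPM. The 53 AcNPM1 peaks at members had a median log2 ratio, KO over control, of 0.05, with 0 past 2-fold, against a median of 0.14 over all 9602. The authors' columns hold 1 value per condition, so there is no test here.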

How the data were processed

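The RNA tables hold read counts per gene, deposited one table per time and one for mESC. The deposited peak tables hold reads per peak and, per their headers, the authors' RPM, total reads and log2 ratio. Total reads is a constant value per column, to which RPM is scaled. Deposited RPM and log2 values matched those recomputed from the reads within 5.0e-05. The submitters' processing notes name HISAT2 2.1.0, Bowtie2 2.2.3 and HTSeq 0.6.0 for RNA and Bowtie2 2.1.0, MACS2 2.1.1 and bcl2fastq 2.2 for chromatin, on mm10, with no role given. Whether peaks were called per sample or on pooled samples, and whether starts count from 0 or 1, is not given in the sources used here.

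Columns were tied to groups by prefix and table title, and there are fewer columns than labelled samples (3 for 4 at 18h, 20h and 22h, 2 for 3 in mESC). At 24h columns of a group that correlated over 0.99 (log2 CPM) were summed, which left 2 libraries per group. The mESC columns, at 0.99, were kept apart, since a sum leaves no test.

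Each RNA table was fitted apart with edgeR 4.0.16 in R 4.3.3 (TMM, filterByExpr, quasi-likelihood test, Benjamini-Hochberg over all genes tested, 0.05). CPM used TMM-scaled library sizes. The fit was tested on simulated data, where it missed most of the changes set at each embryo time and few of those set in mESC, so a count of 0 in embryos does not show that genes did not differ. Overlaps needed 1 base. Intervals cover counting error only, and no molecular identifiers are named in the labels.

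The named peaks were the 20 widest, the 5 with the highest ZC4 level per kb, the 5 highest and lowest ratios and the 3 on each side of the boundary. The named genes were the coding genes at the 20 widest, the 5 with the smallest p per direction and comparison, the 10 highest in control at 18h, 22h and in mESC, and members of fixed lists; a few of these are not reported here. The members and lists were chosen with earlier results of these data known. Alternatives were other normalizations, filters, DESeq2 1.42.0, leaving out each library, a replicate block, other numbers of widest peaks, other overlap rules and gene distances.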

Additional observations from a re-analysis of the deposited data

Results flagged for a closer look

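Among the named genes, 7 had every KO library above the controls at 1 embryo time and every KO library below at another; the difference between times was not tested, and none passed the edgeR test at either time. The values are log2 changes, KO over control. Foxo1 was lower at 18h (-0.42) and higher at 24h (1.32). Mfsd7b was lower at 18h (-8.90) and higher at 22h (7.55), each against a group with no counts, so that these fitted values are no bounds. The gene 9130023H24Rik was lower at 18h (-1.45) and higher at 24h (3.8). Rprd1b was lower at 20h (-3.44) and higher at 22h (1.68). Ewsr1 was lower at 22h (-0.89) and higher at 24h (3.58), and Chid1 lower at 20h (-1.14) and higher at 24h (12.10), with no counts in control at 24h. Cd81 was higher at 22h (5.92) and had no counts in KO at 18h, where the filter left it out of the edgeR test. Of all genes tested at 24h, where a group has 2 libraries, 33.3% had groups that did not overlap. The share was 12.9% for 18h, 9.87% for 20h and 9.23% for 22h. Some of the named genes were picked for a small p in these same comparisons, which favours groups that do not overlap. How many of all genes changed sides between times in this way is not given here, so the count of 7 has no background.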

How the results depend on the processing

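The median log2 ratio of ZS4 over ZC4 at the members reversed to 0.030 with both columns scaled to the same median, and kept its sign and size with the 500 or 2000 widest peaks, other H3K27me3 rules, other tie orders and without chromosome 8. The last 2 were chosen after seeing the data. In RNA the edgeR count of 0 in both directions at each embryo time held under RLE factors, a 1 kb gene rule, a threshold of 0.01 and without any 1 library, with a range of 0 to 0. With DESeq2 it became 1 higher and 5 lower at 18h, and 19 higher and 33 lower at 24h. Without the filter it became 2 lower at 18h and 3 higher at 22h. With the 24h columns kept apart, as 4 near-pairs, it became 17 higher and 20 lower. The causes were not tested. Over all genes DESeq2 called 34 higher and 64 lower at 18h, 11 and 21 at 20h, 3 and 1 at 22h, and 554 and 851 at 24h, where edgeR called 0 and 1, 1 and 1, 0 and 1, and 0 and 0. Without the filter edgeR called 44 and 28, 4 and 11, 30 and 3, and 0 and 3 over all genes, and with separate 24h columns 346 and 477. In mESC, 425 higher and 291 lower became 392 to 406 and 249 to 267 without 1 library, where the lone library is assumed to vary like the other group.

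The deviations of same-numbered control and KO columns had correlations from -0.13 to 0.11, and those of unlike number from -0.15 to 0.16. The numbers thus showed no pairing, but this cannot tell whether same-numbered samples were prepared together. With 2 libraries per group, at 24h and in mESC, the correlations can differ only in sign. With a replicate block the embryo counts stayed at 0 at 18h, 20h, 22h and 24h, and the mESC counts were 439 and 302. At 24h each summed KO library was paired with the control library that shares a column number. The share of coding member genes detected in control at a minimum of 0.5 CPM was 86.9% at 18h, 83.6% at 20h, 82.9% at 22h and 97.2% in mESC, and at 5 CPM 59.3%, 58.3%, 60.3%, 36.8% at 24h and 90.1% in mESC. A gene column of the authors was not used here. At 24h fewer genes had a count than at the other times, at like total counts, and fewer could be tested.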
